A study of Mus musculus with 50 samples.

Results

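The erythroid and heme synthesis genes described here were 35 genes that mark red cell precursors, followed in mouse spleen after injection of CpG DNA and in spleens that lacked TNF. They were chosen by name for their known roles, from the transcription factors of the lineage to the proteins of the red cell membrane. The choice was made with earlier results of these data known. All 35 were measured, by 52 of the 23577 probes that carried 1 gene symbol and a value, among 15312 genes in all. Of the 35, 22 had 1 probe and 13 had several, and the probe with the most values stood for its gene. Of the members, 32 had a value on all 50 arrays, and Gfi1b and Epb42 lacked it on 1 untreated TNF-KO array each (replicates 2 and 1) and Hbb-b1 on C57BL/6 control replicate 4 after CpG.

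CpG oligodeoxynucleotides (ODN) are short synthetic DNAs with unmethylated CG dinucleotides, which the receptor TLR9 recognises. Each of the 50 arrays was hybridised with spleen RNA of female mice, labelled with Cy5, against a common mouse reference RNA, labelled with Cy3. The reference was a pool from embryo, liver, kidney, testis, muscle, skin, mammary gland, macrophages and B and T lymphocytes. BALB/c wild-type mice were injected intraperitoneally with 400 µg of a mixture of CpG ODNs 1555 and 1466, and spleens were taken at 0.5, 1, 3, 9, 24 or 72 h (4 arrays each). Further BALB/c spleens were taken 3 h after the same amount of control ODNs 1612 and 1471 (4 arrays) or from untreated mice (6 arrays). On the C57BL/6 background there were TNF knockout (TNF-KO) mice 3 h after CpG (4 arrays) and untreated (4 arrays), and control mice 3 h after CpG (4 arrays) and untreated (4 arrays). For the C57BL/6 mice the labels gave no dose, and they did not say how the knockout was made or whether the controls were littermates. The titles of the C57BL/6 CpG arrays gave CpG at 3 h while another label field called the same arrays untreated, and the titles were followed.

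The spleen of an adult mouse makes red cells in its red pulp and enlarges this production under stress. Erythropoietin acts through its receptor on early erythroid cells, and GATA1, KLF1 and TAL1 then switch on the genes for heme synthesis, iron import, globin and the membrane skeleton. Proerythroblasts and erythroblasts hold most of these transcripts, whereas reticulocytes keep mainly globin and a few other stable messages. In pieces of whole spleen, fewer erythroid cells and less RNA per erythroid cell cannot be told apart.

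Promoters of the members that passed the test in most comparisons are shown because GATA factors and KLF1 act on genes of this kind through short motifs near the start. The 5 are those with 1 promoter in RefSeq's table (GRCm38.p6), each given as the 150 bases before the gene's start, on the gene's strand. Capitals mark the GATA motifs AGATAA and TGATAA and the CACC-like motif CCNCNCCC, searched on both strands. The windows are chr12:76710548-76710697 for Sptb, chr6:41704326-41704475 for Kel, chr4:46404184-46404333 for Hemgn, chr9:21963577-21963726 for Epor and chr4:119189996-119190145 for Ermap, all on the minus strand.
Sptb: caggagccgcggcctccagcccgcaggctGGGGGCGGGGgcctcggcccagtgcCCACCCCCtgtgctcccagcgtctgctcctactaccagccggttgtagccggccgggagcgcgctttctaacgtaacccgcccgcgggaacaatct
Kel: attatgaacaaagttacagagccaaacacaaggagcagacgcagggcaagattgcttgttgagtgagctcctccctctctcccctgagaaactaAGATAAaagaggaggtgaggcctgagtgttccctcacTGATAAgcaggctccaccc
Hemgn: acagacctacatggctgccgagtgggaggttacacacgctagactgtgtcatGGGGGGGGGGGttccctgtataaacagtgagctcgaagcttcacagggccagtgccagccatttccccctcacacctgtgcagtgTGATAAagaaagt
Epor: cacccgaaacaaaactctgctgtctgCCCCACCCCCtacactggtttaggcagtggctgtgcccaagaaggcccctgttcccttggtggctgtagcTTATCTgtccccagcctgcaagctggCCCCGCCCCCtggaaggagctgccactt
Ermap: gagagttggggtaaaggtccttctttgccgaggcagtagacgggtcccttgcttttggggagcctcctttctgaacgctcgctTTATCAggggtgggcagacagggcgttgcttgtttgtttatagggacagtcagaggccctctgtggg
In these windows Kel held a GATA motif of each kind, and Hemgn, Epor and Ermap held 1 each, on the opposite strand in Epor and Ermap. Sptb held only CCNCNCCC, and the match in Hemgn lay in a run of G on the shown strand. Over the 25 members in the table, 11 windows (44.0%) held AGATAA or TGATAA, against 2677 of 27025 windows (9.9%) over all genes. CCNCNCCC was in 14 of the 25 (56.0%) and in 37.9% of all windows. A match describes these letters only and was not tested as a binding site.

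Each value is the log2 of the spleen signal over the reference signal, after each array was centred on its median, so 0 is the level at which a probe had the array's typical ratio. Differences between groups are differences of such log2 ratios. They were tested with limma over 15264 genes in BALB/c and 14951 in C57BL/6, and a gene was called when its p adjusted over all genes was under 0.05. Counts of members at an unadjusted p under 0.05 are given without the share of all genes at that limit, so they only describe the members. The same holds for counts under other settings or with an array left out, unless the share of all genes stands beside them. Ratios of different genes have different reference levels and were not compared with each other. Each array held 27619 to 30590 values, and the number of arrays limits the precision. Arrays carry numbers of the array database, and arrays whose numbers followed at steps of at most 10 were joined here into 11 runs. The labels do not name these runs as batches. According to the design notes the arrays of a time point come from independent experiments, and a p-value here reflects only how far such arrays differ.

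Many of the members varied together from array to array, while Alas2 and the globins varied otherwise. Each member was correlated with the mean of the other 34 over the arrays, as a description in which all points share the reference and the array. Over the 34 BALB/c arrays, r was above 0.8 for 17 members, among them Fn3k (0.976), Klf1 (0.962), Urod (0.956), Hemgn (0.948) and Fech (0.939). Over the 16 C57BL/6 arrays it was above 0.8 for 27 members, led by Ermap (0.989), Klf1 (0.978) and Alad (0.977). Shares of all genes above 0.8 were not computed. Differences between groups enter r, and the C57BL/6 arrays include untreated TNF-KO replicates 1, 2 and 3 with low member means (1.13, 1.10 and 1.09). These counts therefore do not compare the strains. Bpgm was loosely tied in both strains (0.390 in BALB/c and 0.386 in C57BL/6), and Car2 in BALB/c (0.467) but not in C57BL/6 (0.941). Alas2, the erythroid form of the rate-limiting enzyme of heme synthesis, had r of 0.049 in BALB/c and -0.274 in C57BL/6. Hba-a1, an alpha globin gene, had -0.187 and -0.689, and Hbb-b1, a beta globin gene, had -0.132 and -0.125. Transcripts of near-identical globin copies may bind the same probes, so these 2 values may cover several genes.

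Outside the 35, the 10 genes most like the members' mean on all 50 arrays, of 11956 compared, were Aqp1 (r = 0.961), Dhrs11 (0.956), Cldn13 (0.952), Ubac1 (0.944), Slc22a4 (0.942), Tfrc (0.938), Gclm (0.936), Specc1 (0.934), Samd14 (0.933) and Dyrk3 (0.929). Aqp1, the red cell water channel, Cldn13 and Tfrc, the transferrin receptor that imports iron, stood on a list of 39 further erythroid genes, of which 28 were tested.

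**Figure D1:**
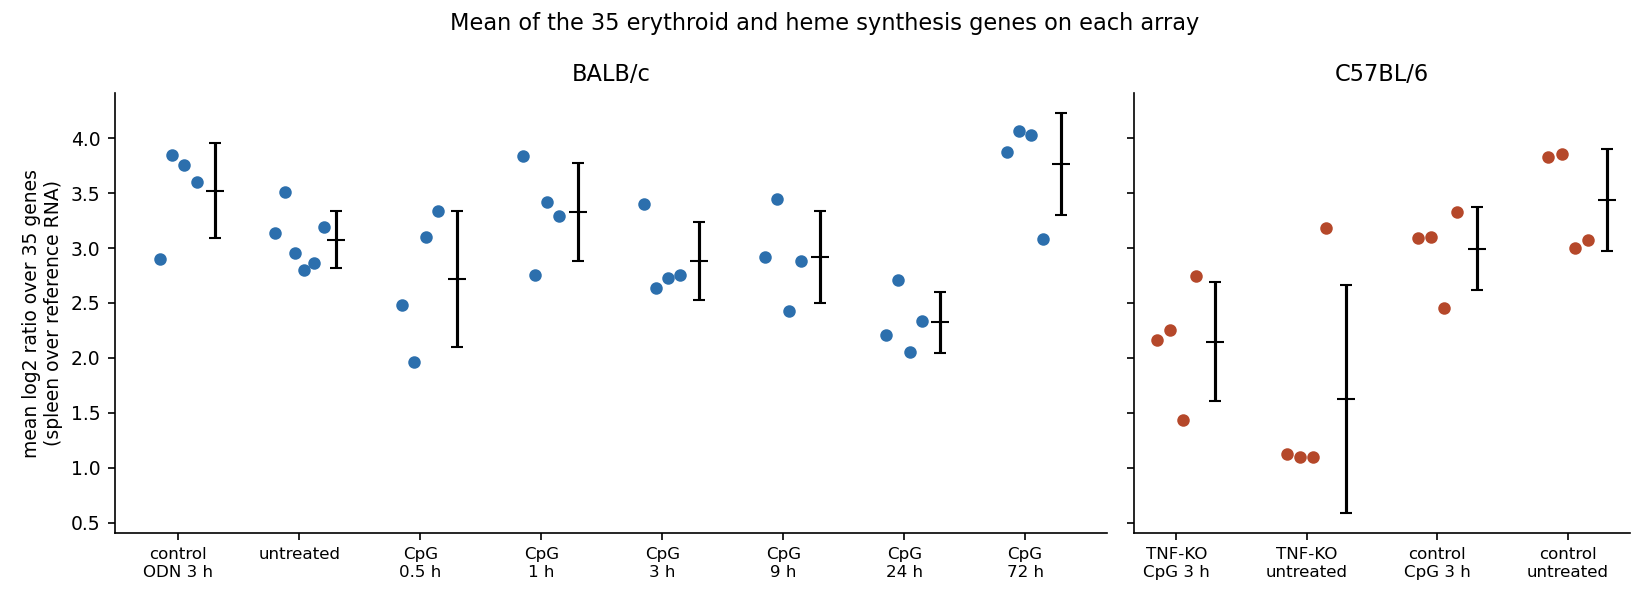
Mean log2 ratio of the 35 genes on each array (points) with the group mean and SD (bars), by group, in BALB/c (left) and C57BL/6 spleens (right). The BALB/c means are lowest at 24 h and highest at 72 h, and untreated TNF-KO replicate 4 (3.18) stands apart from the other 3 (1.09 to 1.13).

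In the early hours after CpG no member was called with 1 probe per gene. At 0.5 h 0 of 35 passed (0.256% of all genes were called in either direction), with a median difference from untreated spleens of -0.36 and 2 members at an unadjusted p under 0.05. At 1 h 0 of 35 passed (3.30% of all genes), with a median of 0.31 and 2 members at an unadjusted p under 0.05, and at 3 h 0 of 35 passed (9.96% of all genes), with a median of -0.27 and no member under that limit. At 9 h 0 of 35 passed (6.96% of all genes), with a median of -0.17 and 1 member under that limit. Medians over all genes lay between -0.03 and 0.07 in these 4 comparisons. When arrays were scaled to the same spread, the 1 h median turned to -0.23, and with the run as a block the median was -0.71 at 3 h and -0.81 at 9 h. Taking the mean of all probes, 1 member passed at each of 1 h, 3 h and 9 h. Another Sptb probe averaged 2.02 at 3 h and 1.29 at 9 h, against -0.64 in untreated spleens. The Sptb probe used averaged 2.44 at 3 h and 2.53 at 9 h, against 2.70 in untreated spleens. The comparisons share the 6 untreated arrays.

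The per-array means of the 35 varied as much within these early groups as between them. They ran from 1.97 to 3.34 at 0.5 h, 2.76 to 3.84 at 1 h, 2.64 to 3.40 at 3 h and 2.43 to 3.45 at 9 h, against 2.80 to 3.51 in untreated spleens. Replicate 1 at 3 h, with 3.40, stood apart from the other 3 at 2.64 to 2.75.

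At 24 h after CpG, 8 of the 35 members fell and none rose (1.62% of all genes were called lower and 6.82% higher). They were the mitochondrial iron importer Slc25a37, the heme enzymes Urod and Ppox, the membrane proteins Slc4a1 and Sptb, and Fn3k, Hemgn and Ctse. The median over the 35 members was -0.78, against 0.02 over all genes, and 31 of 35 differences were below 0. The other 27 did not pass, and 21 members had an unadjusted p under 0.05.

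Slc25a37, or mitoferrin 1, carries iron into the mitochondrion for heme. It read 1.08, 2.45, 0.18 and 1.02 at 24 h, against a lowest value of 2.61, a median of 2.92 and a highest of 3.21 in the 6 untreated spleens. All 4 arrays at 24 h lay below all 6 untreated arrays. The difference was -1.72 ± 0.34 (SE), a 3.28-fold lower ratio (adjusted p = 0.00112).

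Fn3k, a kinase that removes sugar adducts from proteins, read 0.34, 1.21, 0.25 and 0.45 at 24 h, against 1.66 (lowest), 2.23 (median) and 3.26 (highest) in untreated spleens. The groups did not overlap, and the difference was -1.72 ± 0.42 (SE, adjusted p = 0.00778). Slc4a1, the band 3 anion exchanger of the red cell membrane, read 4.30, 4.72, 2.76 and 4.31 at 24 h, against 4.84, 5.82 and 6.19 in untreated spleens (lowest, median and highest). Its groups did not overlap either, although replicate 2 came within 0.2 of the lowest untreated array, and the difference was -1.61 ± 0.41 (SE, adjusted p = 0.0107).

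Among the heme enzymes, Urod, which decarboxylates uroporphyrinogen, read 0.53, 1.61, 0.28 and 0.74 at 24 h, against 1.74, 2.02 and 2.49 in untreated spleens (lowest, median and highest). It fell by 1.31 ± 0.34 (SE, adjusted p = 0.0137). Ppox, the next to last enzyme of the path, read 0.05, 1.26, 0.11 and 0.04 at 24 h, against 1.14, 1.44 and 2.12, and fell by 1.15 ± 0.33 (SE, adjusted p = 0.0245) and its groups overlapped. Uros had a difference of -1.36 (adjusted p = 0.0625), Fech, which inserts the iron, -1.05 (0.11, while its other 2 probes gave -1.69 and -2.01), Alad -0.78 (0.182) and Cpox -0.38 (0.501). Alas2 differed by 0.02, with a 95% interval of -0.75 to 0.80 (adjusted p = 0.98).

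Sptb, the erythroid beta spectrin, read 1.42, 2.28, 0.86 and 1.44 at 24 h, against 2.31, 2.73 and 3.10 in untreated spleens, and fell by 1.20 (adjusted p = 0.0129). Hemgn, a nuclear protein of blood precursors, read 1.75, 2.14, 1.48 and 1.58 at 24 h, against 2.58, 2.91 and 3.55, and fell by 1.24 (0.0365). Ctse, the aspartic protease cathepsin E, read 3.58, 4.61, 4.16 and 3.82 at 24 h, against 4.81, 4.93 and 5.48, and fell by 1.00 (0.0383). None of these 3 overlapped with the untreated arrays. Another Sptb probe differed by 1.47 in the opposite direction at 24 h, another Slc4a1 probe by -0.14, another Ppox probe by -0.35 and another Hemgn probe by -0.58. With the mean of all probes the value of Sptb turned to 0.13 (adjusted p = 0.754).

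None of the 6 transcription factors and receptors passed at 24 h. Gata1 read 1.64, 1.80, 2.10 and 1.84, against 1.90, 2.08 and 2.38 in untreated spleens (lowest, median and highest), and the groups overlapped. Its difference was -0.26, with a 95% interval of -0.67 to 0.15. Klf1, the Krüppel-like activator of globin and membrane genes, had -1.003 (adjusted p = 0.198), Tal1, a DNA-binding partner of GATA1, -0.88 (0.186), and the erythropoietin receptor Epor -0.18 (0.809). Of the membrane skeleton, the ankyrin gene Ank1 had -0.79, the protein 4.2 gene Epb42 -0.86 and the beta adducin gene Add2 -0.88, and these did not pass. The 5 Rh and blood group genes did not pass, with differences of -1.32 for Rhd, the mouse Rh protein, -1.14 for Kel, the Kell protease, -0.72 for Ermap, -0.62 for Rhag and -0.28 for Icam4. Hba-a1 differed by 0.06 and Hbb-b1 by -0.13.

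Of the 28 other erythroid genes tested, 9 fell at 24 h and none rose. Aqp1 fell by 1.501 (adjusted p = 0.0031), Trim10 by 1.87 (0.0421), Tfrc by 1.34 (0.0452) and Abcb10, a mitochondrial transporter of erythroid cells, by 1.14 (0.0498). Sox6, Add1, Lmo2, Cat and Bnip3l also passed.

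Of the 8 calls at 24 h, those of Slc25a37 and Fn3k remained whichever single array was left out. Without 24 h replicate 3 the count was 2 and without replicate 1 it was 5. No run of array numbers held both 24 h and untreated arrays. With the run as a block, linked only through the 3 h arrays, the median was -1.40 and 0 members passed.

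In the run that held 24 h, 3 h and 9 h arrays, the mean of the 35 was 2.36 over 3 arrays at 24 h. It was 3.02 over 2 arrays at 3 h (3.405 and 2.637), and 30 of 35 members were lower at 24 h. Against 4 arrays at 9 h in that run, with a mean of 2.92, 29 of 35 were lower at 24 h. Markers of proliferating cells overlapped between 24 h and untreated spleens. Their mean ran from -0.59 to 0.15 at 24 h, against -0.38 to 0.05 in untreated spleens, and 0 of 19 passed. Red pulp macrophage markers had a mean of 3.71 to 4.295 at 24 h, against 2.915 to 3.60 in untreated spleens, without overlap, and 3 of 10 were higher. Neutrophil markers had 2.24 to 3.33 at 24 h, against 1.70 to 2.62, and 3 of 13 were higher. The part of these cells in the change of the members was not tested.

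**Figure D2:**
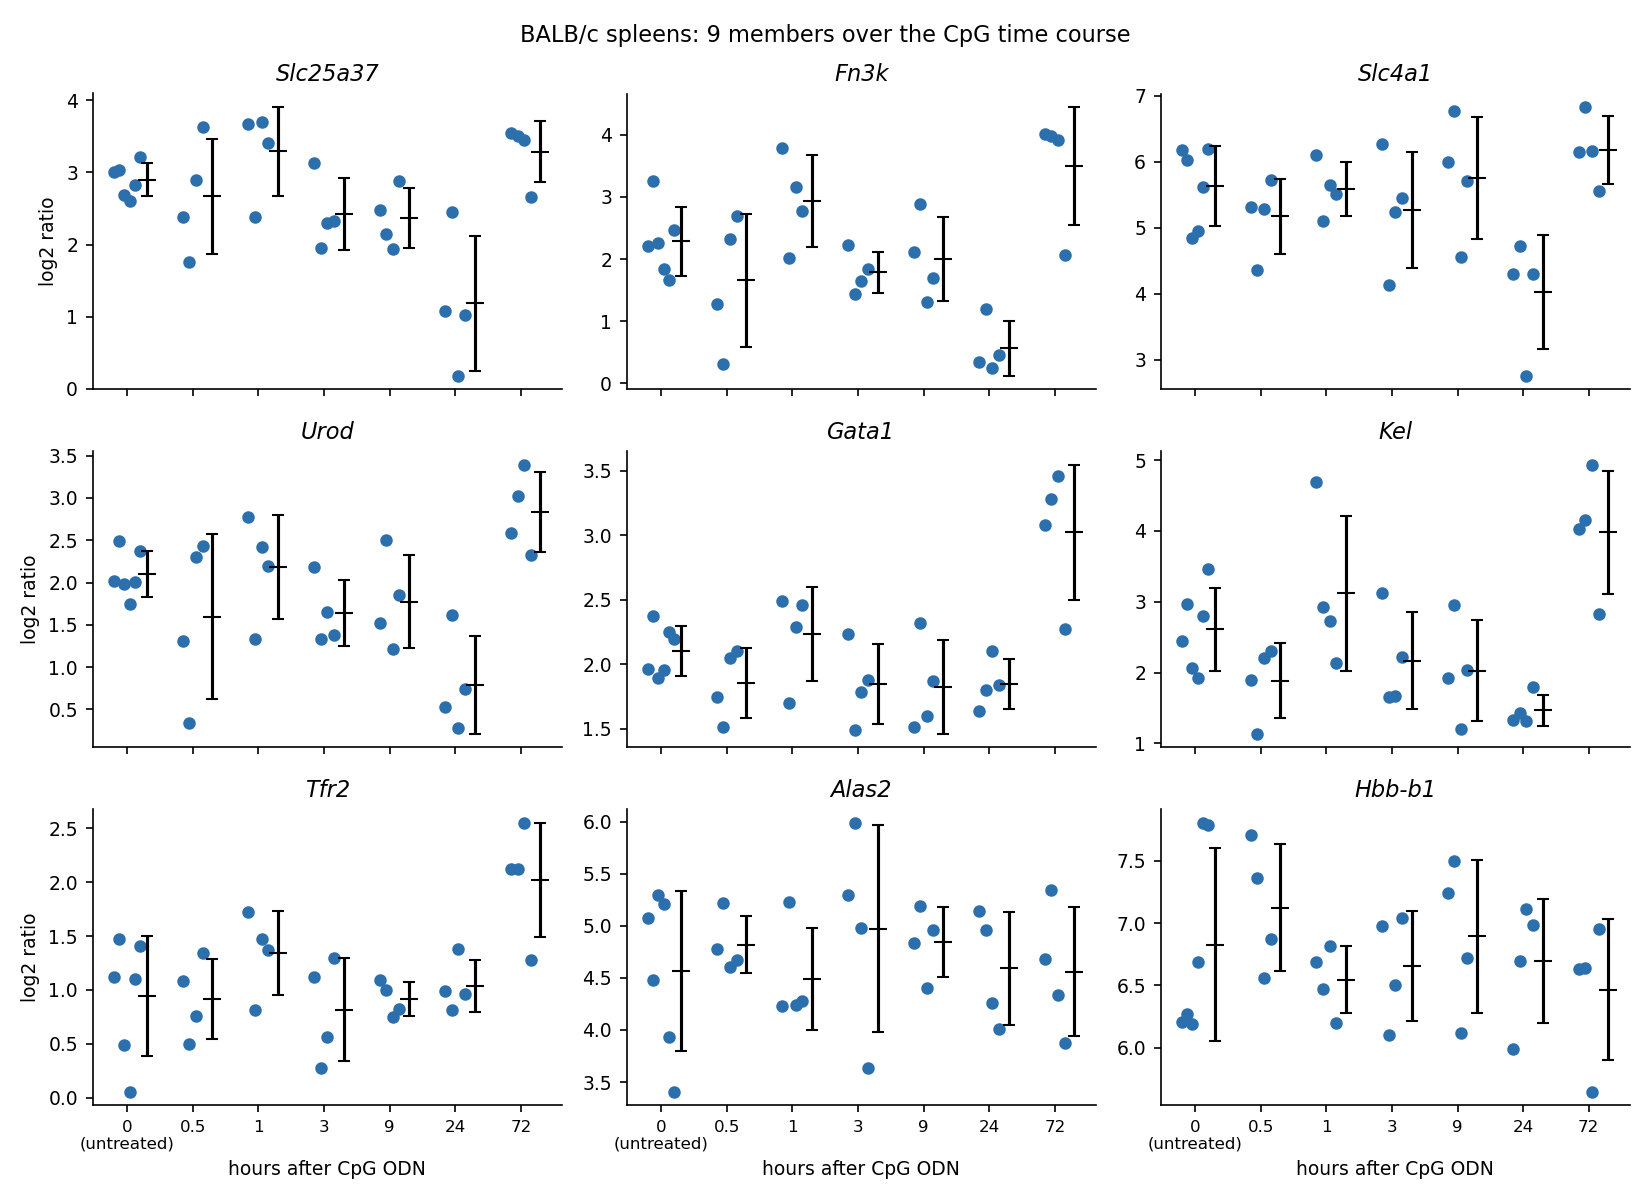
Log2 ratio of 9 members on each BALB/c array (points) with the group mean and SD (bars), from untreated spleens to 72 h after CpG. Slc25a37, Fn3k, Slc4a1 and Urod have their lowest means at 24 h, Gata1, Kel and Tfr2 have their highest at 72 h, and Alas2 and Hbb-b1 show neither.

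At 72 h, 23 of the 35 members stood higher than at 24 h and none lower (2.26% of all genes were called higher and 1.06% lower). The median over the 35 was 1.37, against -0.04 over all genes, and 33 of 35 differences were above 0. By role, 5 of 6 transcription factors and receptors rose, 7 of 9 genes of heme synthesis and iron supply, 3 of 5 membrane skeleton genes, 4 of 5 Rh and blood group genes, 4 of 8 other red cell proteins, and 0 of 2 globins.

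Fn3k moved most, with 4.01, 3.98, 3.92 and 2.07 at 72 h, against 0.34, 1.21, 0.25 and 0.45 at 24 h. The difference was 2.93 ± 0.46 (SE), or 7.64-fold (adjusted p = 0.000645), and replicate 4 at 72 h lay far below the other 3. Kel read 4.02, 4.15, 4.93 and 2.82 at 72 h, against 1.33, 1.43, 1.32 and 1.79 at 24 h, a difference of 2.51 ± 0.45 (SE, adjusted p = 0.00152). Its groups did not overlap.

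Rhd read 5.82, 6.37, 7.18 and 4.93 at 72 h, against 3.14, 4.67, 3.79 and 3.72 at 24 h, without overlap. The differences for Rh and blood group genes beside Kel were 2.24 for Rhd (adjusted p = 0.0107), 1.32 for Ermap (0.0178), 1.17 for Icam4 (0.0235) and 1.37 for Rhag (0.0677), which did not pass. Gata1 read 3.08, 3.28, 3.46 and 2.27 at 72 h, against 1.64, 1.80, 2.10 and 1.84 at 24 h. Tal1 read 3.85, 4.12, 4.69 and 2.97 at 72 h, against 1.57, 1.91, 1.88 and 2.02 at 24 h. Both had no overlap, with replicate 4 the lowest at 72 h. Klf1 read 6.69, 6.86, 6.76 and 4.86 at 72 h, against 3.89, 5.02, 3.67 and 4.11 at 24 h, and replicate 4 lay within the 24 h range. Among the regulators the differences were 1.18 for Gata1 (0.00275), 2.06 for Tal1 (0.0065), 1.75 for the globin regulator Nfe2 (0.00458), 2.12 for Klf1 (0.0179) and 1.34 for Epor (0.045). Gfi1b, a repressor of erythroid and megakaryocyte cells, had 1.20 (0.148).

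In heme synthesis, 6 of the 7 enzymes rose. Urod read 2.59, 3.02, 3.39 and 2.33 at 72 h, against 0.53, 1.61, 0.28 and 0.74 at 24 h. Fech read 3.52, 3.60, 4.19 and 2.69 at 72 h, against 1.07, 2.14, 1.21 and 1.65 at 24 h. Neither overlapped. Urod gained 2.04 (adjusted p = 0.00208), Uros 2.28 (0.00858), Fech 1.98 (0.00974), Ppox 1.65 (0.00724), Alad 1.48 (0.03) and Cpox 1.34 (0.0271), and Slc25a37 gained 2.10 (0.00152). Alas2 differed by -0.03, with a 95% interval of -0.88 to 0.82. Hba-a1 differed by 0.01 (interval -0.64 to 0.66) and Hbb-b1 by -0.23 (interval -1.02 to 0.56).

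In the membrane skeleton, Slc4a1 read 6.15, 6.83, 6.16 and 5.56 at 72 h, against 4.30, 4.72, 2.76 and 4.31 at 24 h, and gained 2.15 (adjusted p = 0.00522). Sptb gained 1.76 (0.00305) and Ank1 1.21 (0.0431), while Epb42 had 0.96 (0.237) and Add2 1.10 (0.0536). Another Sptb probe gave -0.41, and with the mean of all probes the call of Sptb was lost and the other 22 of the 23 remained. Other Ank1 probes gave 2.25, 2.49 and 0.04, another Slc4a1 probe 0.42, another Ppox probe 0.48 and another Hemgn probe 0.155. Of the remaining proteins, Hemgn gained 2.29 (0.00164), Ctse 1.58 (0.00626) and Tspan33 1.26 (0.014). Sncg had 1.81 (0.0512), Car1 0.99 (0.0739), the carbonic anhydrase gene Car2 0.29 (0.685) and Bpgm, a glycolytic mutase, 0.15 (0.796), and these did not pass. Another Car2 probe, also with 50 values, gave 2.20 here and -1.37 at 24 h against untreated spleens, where the probe used gave -0.63.

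Of the 23 calls, 14 remained whichever array was left out, and without 72 h replicate 3 the count was 14 and without replicate 2 it was 15. All 72 h arrays formed a run of numbers with the control ODN arrays and none with the 24 h arrays, so run and time cannot be told apart here. Of the 28 other erythroid genes, 15 were higher at 72 h than at 24 h, among them Trim10 (2.87), Tfrc (2.36), Abcb10 (2.25) and Sox6 (1.80), and none was lower. Proliferation genes had a mean of 0.21 to 0.92 at 72 h, against -0.59 to 0.15 at 24 h, without overlap, and 2 of 19 were higher. Their part in the change was not tested.

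Against untreated spleens, 7 of the 35 members were higher at 72 h and none lower (6.47% of all genes were called higher and 4.15% lower). They were Gata1, Epor, Cpox, Tfr2, Kel, Icam4 and Car1. The median was 0.77, against 0.03 over all genes, and 17 members had an unadjusted p under 0.05. This comparison shares the untreated arrays with the one at 24 h.

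Gata1 read 3.08, 3.28, 3.46 and 2.27 at 72 h, against 1.90, 2.08 and 2.38 in untreated spleens (lowest, median and highest). Only replicate 4 fell within the untreated range, and the difference was 0.91 ± 0.20 (SE, adjusted p = 0.0041). Tfr2, the transferrin receptor that senses iron in erythroid cells and liver, read 2.12, 2.12, 2.55 and 1.28 at 72 h, against 0.06, 1.11 and 1.48 in untreated spleens. Its difference was 1.08 ± 0.26 (SE, adjusted p = 0.00873), and another Tfr2 probe gave 0.12.

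Car1, an erythrocyte carbonic anhydrase, read 6.68, 6.57, 6.22 and 5.49 at 72 h, against 4.38, 5.16 and 5.82 in untreated spleens, a difference of 1.11 (adjusted p = 0.0124). Epor gained 1.17 (0.0307), Kel 1.37 (0.0299), Icam4 0.90 (0.0328) and Cpox 0.96 (0.0496). Another Epor probe gave -0.27 and another Cpox probe -0.21, and with the mean of all probes these 2 calls were lost. The members that had fallen at 24 h had differences of 0.39 for Slc25a37, 0.55 for Slc4a1, 0.73 for Urod and 1.21 for Fn3k (adjusted p = 0.0579) and did not pass. Alas2 differed by -0.01 and Hbb-b1 by -0.36.

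The mean of the 35 was 3.88, 4.07, 4.03 and 3.08 at 72 h, and without replicate 4 the count of higher members was 15. It was 2 without each of 72 h replicates 1, 2 and 3, and among untreated arrays it was 3 without replicate 3 or 4, 4 without replicate 5 and 11 without replicate 2. With array weights 25 members passed, and for these counts the share of all genes called is not given. Proliferation genes also read higher at 72 h, with a mean of 0.21 to 0.92, against -0.38 to 0.05 in untreated spleens, and 1 of 19 passed. Megakaryocyte and platelet markers had 2 of 8 higher, with a mean of 1.89 to 2.80 at 72 h, against 1.64 to 2.26 in untreated spleens. Red pulp macrophage markers had 4 of 10 higher (3.50 to 4.42 at 72 h, against 2.915 to 3.60) and neutrophil markers 4 of 13 higher (2.13 to 3.50, against 1.70 to 2.62). T cell markers had 3 of 8 lower without overlap (1.13 to 1.27 at 72 h, against 1.43 to 1.84) and B cell markers 2 of 8 lower (2.09 to 2.83, against 2.57 to 3.415). The part of these cells in the change of the members was not tested. Run and time cannot be told apart here either.

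At 3 h after control ODN, 1 member was higher than in untreated spleens, Sptb (1.05% of all genes were called higher), and none was lower (0.367%). Sptb read 3.26, 4.53, 4.62 and 3.51 after control ODN, against 2.31, 2.73 and 3.10 in untreated spleens (lowest, median and highest), a difference of 1.28 ± 0.31 (SE, adjusted p = 0.0396). The call was lost with the mean of its probes and without any of 7 single arrays, among them control ODN replicates 1, 2 and 3, and 4 members passed without control ODN replicate 4. The median over the 35 was 0.37, against 0.09 over all genes. Megakaryocyte and platelet markers had 2.18 to 3.20 after control ODN, against 1.64 to 2.26 in untreated spleens (1 of 8 higher), and neutrophil markers 2.26 to 3.68, against 1.70 to 2.62 (3 of 13 higher).

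CpG against control ODN at 3 h gave 7 lower members and none higher (10.9% of all genes were called lower and 7.40% higher). They were Sptb (-1.54), Epor (-1.50), Fn3k (-1.44), Slc25a37 (-1.23), Nfe2 (-1.20), Ermap (-1.05) and Ctse (-0.96), with adjusted p from 0.00168 for Sptb to 0.0441 for Ctse. Epor read 3.77, 1.78, 2.00 and 2.65 after CpG, against 3.75, 4.34, 4.46 and 3.66 after control ODN, and replicate 1 after CpG lay within the control ODN range.

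The median was -0.68, against -0.08 over all genes. With arrays scaled to the same spread 1 member passed and the median was -0.17. With the mean of all probes Sptb turned to 0.61 and the call of Epor was lost too, and Ctse, Ermap, Fn3k, Nfe2 and Slc25a37 remained. Another Epor probe averaged -0.10 after CpG and -0.61 after control ODN. With 1 probe per gene the calls of Epor and Sptb remained whichever array was left out. The count was 4, 3 and 2 without CpG replicates 3, 2 and 4, and 3 and 2 without control ODN replicates 2 and 3. The control ODN arrays shared no run with the CpG arrays at 3 h, so run and treatment cannot be told apart. Markers of 3 other cell types were lower without overlap, with red pulp macrophages at 3.095 to 3.36 after CpG against 3.54 to 4.34 after control ODN (3 of 10 lower), B cells at 2.47 to 2.725 against 2.88 to 3.64 (3 of 8 lower) and megakaryocytes and platelets at 1.66 to 2.11 against 2.18 to 3.20 (4 of 8 lower). Their part in the difference of the members was not tested.

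**Figure D3:**
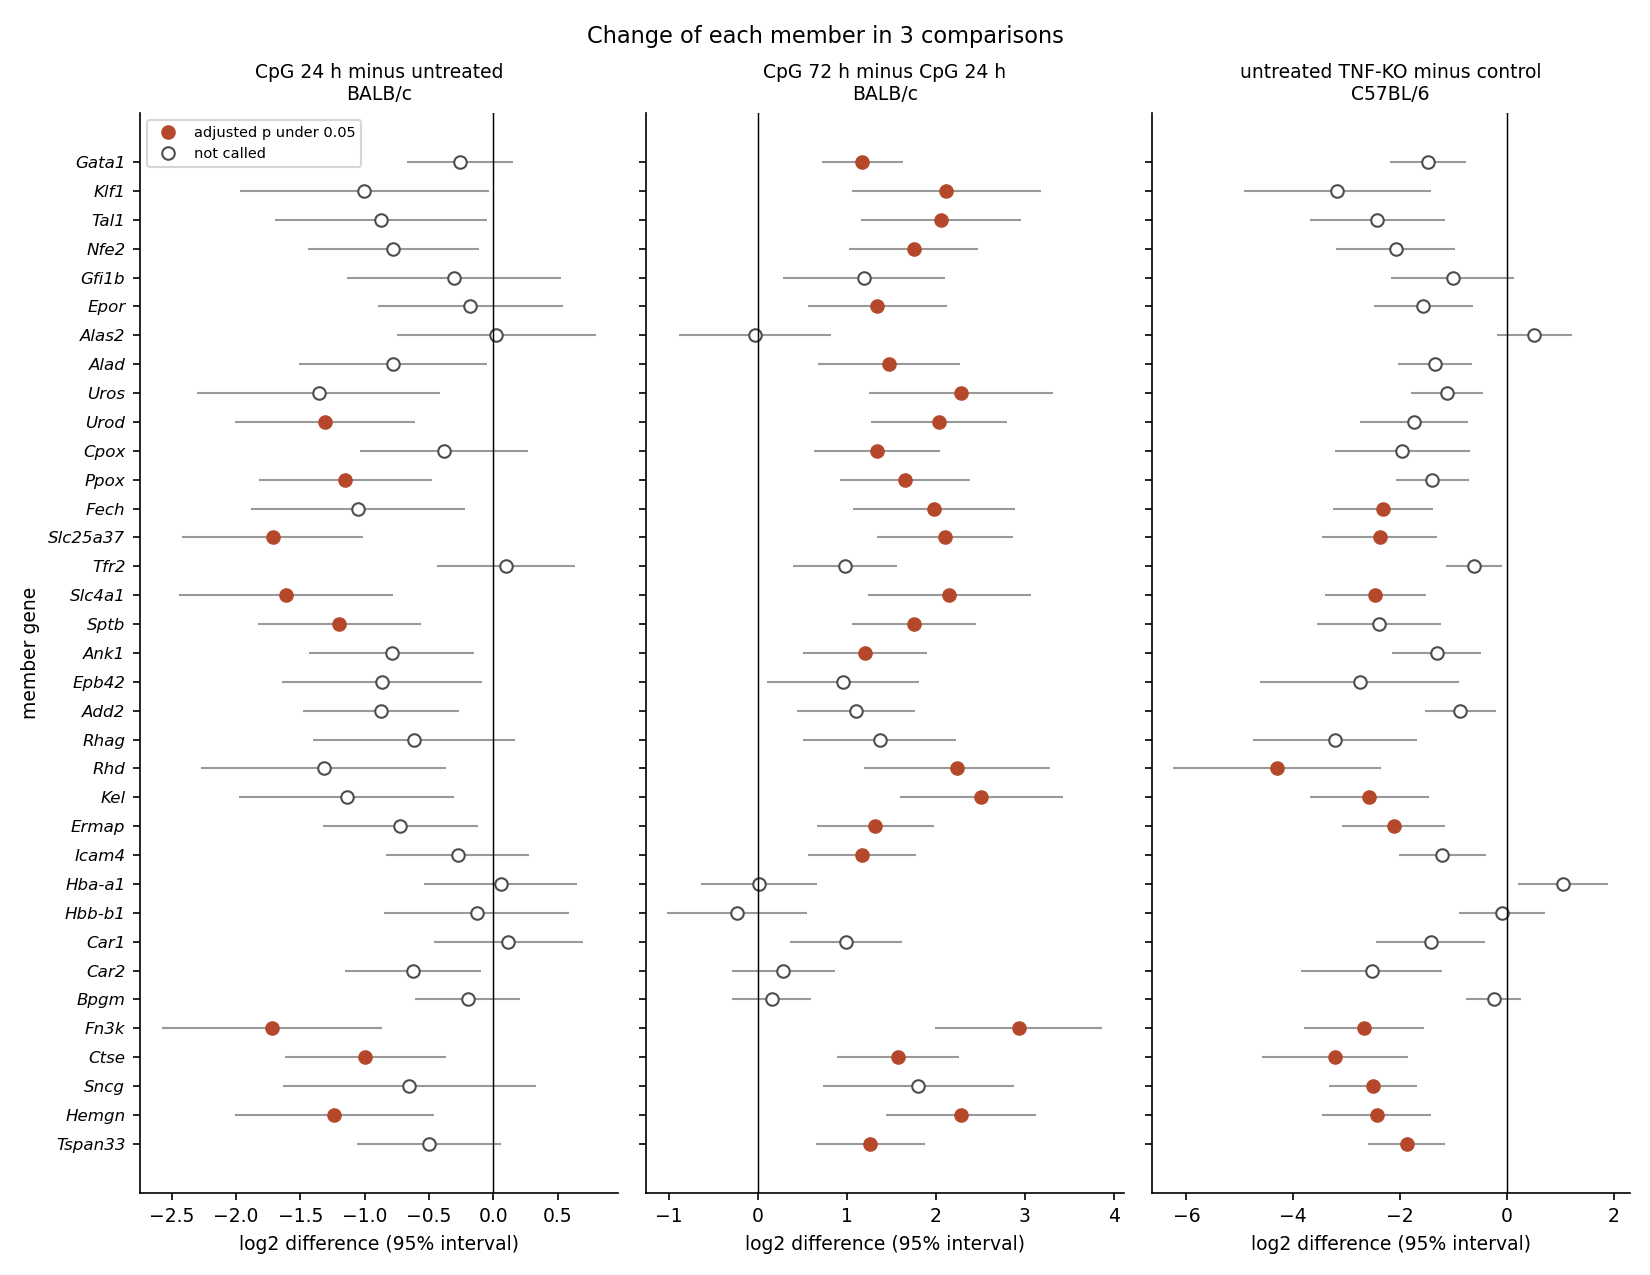
Difference of log2 ratios for each member with its 95% interval, for CpG 24 h minus untreated, CpG 72 h minus 24 h (both BALB/c) and untreated TNF-KO minus control (C57BL/6). Filled points passed at an adjusted p under 0.05, which 8, 23 and 11 members did, and Alas2, Hba-a1, Hbb-b1 and Bpgm passed in none of the 3.

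Untreated spleens without TNF had lower levels of 11 of the 35 members than untreated C57BL/6 control spleens, and none was higher (0.482% of all genes were called lower and 0.0803% higher). The 11 were Fech and Slc25a37 of the heme path, the band 3 gene Slc4a1, the blood group genes Rhd, Kel and Ermap, and Sncg, Tspan33, Hemgn, Fn3k and Ctse. The median over the 35 was -1.95, against 0.03 over all genes, and 31 had an unadjusted p under 0.05. This rested on 3 of the 4 knockout arrays, since replicate 4 stood apart.

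Tnf itself checks the genotype labels. It read -0.61, -0.09, -0.30 and 0.09 in untreated TNF-KO spleens, against 0.77, 0.62, 0.78 and 0.58 in untreated controls, and 0.43, -0.35, -0.45 and -0.31 in TNF-KO spleens after CpG, against 4.30, 3.61, 4.59 and 3.16 in controls after CpG. In both states every knockout array lay below every control array, replicate 4 included. Since Tnf was low in TNF-KO spleens in both states, it does not check which knockout arrays had CpG.

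The mean of the 35 was 1.13, 1.10, 1.09 and 3.18 in untreated TNF-KO spleens, against 3.83, 3.85, 3.00 and 3.07 in untreated controls. Knockout replicates 1 to 3 lay below all 4 controls for 31 of the 35 members, against 8.2% of all genes, and they were the lowest 3 of all 16 C57BL/6 arrays for 18 members. Replicate 4 lay within the control range for 28 members, below it for 5 and above it for 2. Shares over all genes were not computed for the 18 members or for the counts of replicate 4.

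Rhd read 0.16, -0.07, -0.26 and 5.21 in untreated TNF-KO spleens, against 6.67, 5.64, 4.97 and 4.96 in controls. The first 3 knockout arrays were near the array median, while replicate 4 was above 2 of the controls. The difference over all arrays was -4.30 ± 0.93 (SE), or 19.7-fold lower (adjusted p = 0.0462). Its partner Rhag, the Rh-associated glycoprotein, read -0.23, -0.09, -0.05 and 3.90, against 4.27, 4.66, 3.58 and 3.91 in controls, and with all arrays it did not pass (-3.22, adjusted p = 0.0544). Kel read 0.66, 1.44, 1.12 and 3.78 in untreated TNF-KO spleens, against 5.11, 4.72, 3.56 and 3.90 in controls (-2.58, adjusted p = 0.0385).

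Slc4a1 was below all controls on all 4 knockout arrays, with 4.71, 3.76, 3.41 and 6.09 in TNF-KO spleens, against 7.42, 7.29, 6.67 and 6.44 in controls. The difference was -2.46 ± 0.45 (SE, adjusted p = 0.0267), while another Slc4a1 probe gave -0.37. Sncg, or gamma-synuclein, had the smallest adjusted p of the members. It read 1.85, 0.91, 0.92 and 3.07 in TNF-KO spleens, against 4.49, 4.56, 3.74 and 4.01 in controls, without overlap (-2.51 ± 0.39, SE, adjusted p = 0.0088).

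Fech read 0.59, 0.19, 0.27 and 2.53 in TNF-KO spleens, against 3.82, 3.37, 2.75 and 2.89 in controls. It fell by 2.31 (adjusted p = 0.035) and its other 2 probes gave -1.83 and -1.72. Tspan33, a tetraspanin of erythroid cells, read -0.23, -0.51, -0.24 and 1.15, against 2.58, 2.40, 1.15 and 1.53 in controls, and fell by 1.88 (0.0277). Both had no overlap between the groups. Ctse read 0.71, 0.89, 1.45 and 4.499 in TNF-KO spleens, against 5.41, 5.92, 4.32 and 4.79 in controls, and fell by 3.22 (0.0361). Slc25a37 read 0.75, 0.05, 0.76 and 2.91, against 4.25, 3.91, 2.69 and 3.16 in controls, and fell by 2.38 (0.0456). In both, replicate 4 lay within the control range. Fn3k fell by 2.67 (0.0361), Ermap by 2.12 (0.0463) and Hemgn by 2.44 (0.0361), although another Hemgn probe gave 0.51. Other probes of members that did not pass gave 0.25 for Epor, where the probe used gave -1.56, and 0.13 for Ppox, where it gave -1.40.

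The regulators did not pass over all 4 arrays, again with replicate 4 at the control level. Klf1 read 0.97, 0.50, 1.16 and 5.84 in untreated TNF-KO spleens, against 5.82, 5.87, 4.69 and 4.79 in controls (-3.18 ± 0.84, SE, adjusted p = 0.103). Gata1 read 0.29, 0.59, 0.58 and 2.04, against 2.80, 2.98, 1.76 and 1.84 in controls (-1.47, adjusted p = 0.0579). Tal1 read 0.39, 0.41, 0.12 and 3.02, against 4.21, 3.78, 2.81 and 2.84 in controls (-2.43, adjusted p = 0.0792).

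For the globins and Alas2 the arrays stood in another order. Hba-a1 read 5.68, 4.94, 5.72 and 3.65 in untreated TNF-KO spleens, against 3.18, 4.90, 3.72 and 3.98 in controls, so replicates 1 to 3 were above every control and replicate 4 was within their range. It did not pass over all arrays (1.05 ± 0.40, SE, adjusted p = 0.301). Hbb-b1 read 5.15, 4.33, 6.12 and 3.64 in TNF-KO spleens, against 4.61, 5.59, 4.60 and 4.81 in controls, with overlap. Alas2 read 5.96, 5.07, 5.27 and 5.37, against 4.09, 5.64, 5.16 and 4.71 in controls, and differed by 0.52 (95% interval -0.19 to 1.23). Bpgm, which makes the oxygen affinity regulator 2,3-bisphosphoglycerate, differed by -0.25 (interval -0.76 to 0.26).

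Without knockout replicate 4, left out after its values were seen, 30 of the 35 members were lower (2.29% of all genes were called lower) and 1, Hba-a1, was higher (0.221% of all genes), and the median was -2.53. Rhd then differed by -5.62 (adjusted p = 5.65e-05), Klf1 by -4.42 (5.99e-05), Rhag by -4.23 (9.26e-05), Gata1 by -1.86 (0.000811) and Hba-a1 by 1.503 (0.0192). Alas2, Hbb-b1, Bpgm and Tfr2 did not pass. Because replicate 4 was left out after its values were seen, the p-values and counts here follow that choice. Of the 28 other erythroid genes 13 were then lower and none higher, against 3 lower with all arrays, namely Trim10 (-3.06), Tmod1 (-2.06) and E2f2 (-1.82).

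The count over all arrays also hung on the other replicates. It was 1 without knockout replicate 1 or 2 and 0 without replicate 3, and among controls 1 without replicate 1 or 2 and 3 without replicate 4, while every median stayed between -2.53 and -1.71. With the run as a block 24 members were lower and with array weights 22. With arrays scaled to the same spread 2 passed, and with the mean of all probes 6. Shares of all genes called are not given for these settings, so the counts describe the members only.

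Within the runs that held both genotypes the mean of the 35 was 1.09 in a knockout spleen against 3.07 in a control, 1.10 against 3.00 and 1.13 against 3.85. The median differences of the members were -1.92, -1.71 and -2.70, and 31 to 33 of the members were lower in each. Knockout replicate 4 shared a run with no untreated control.

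**Figure D4:**
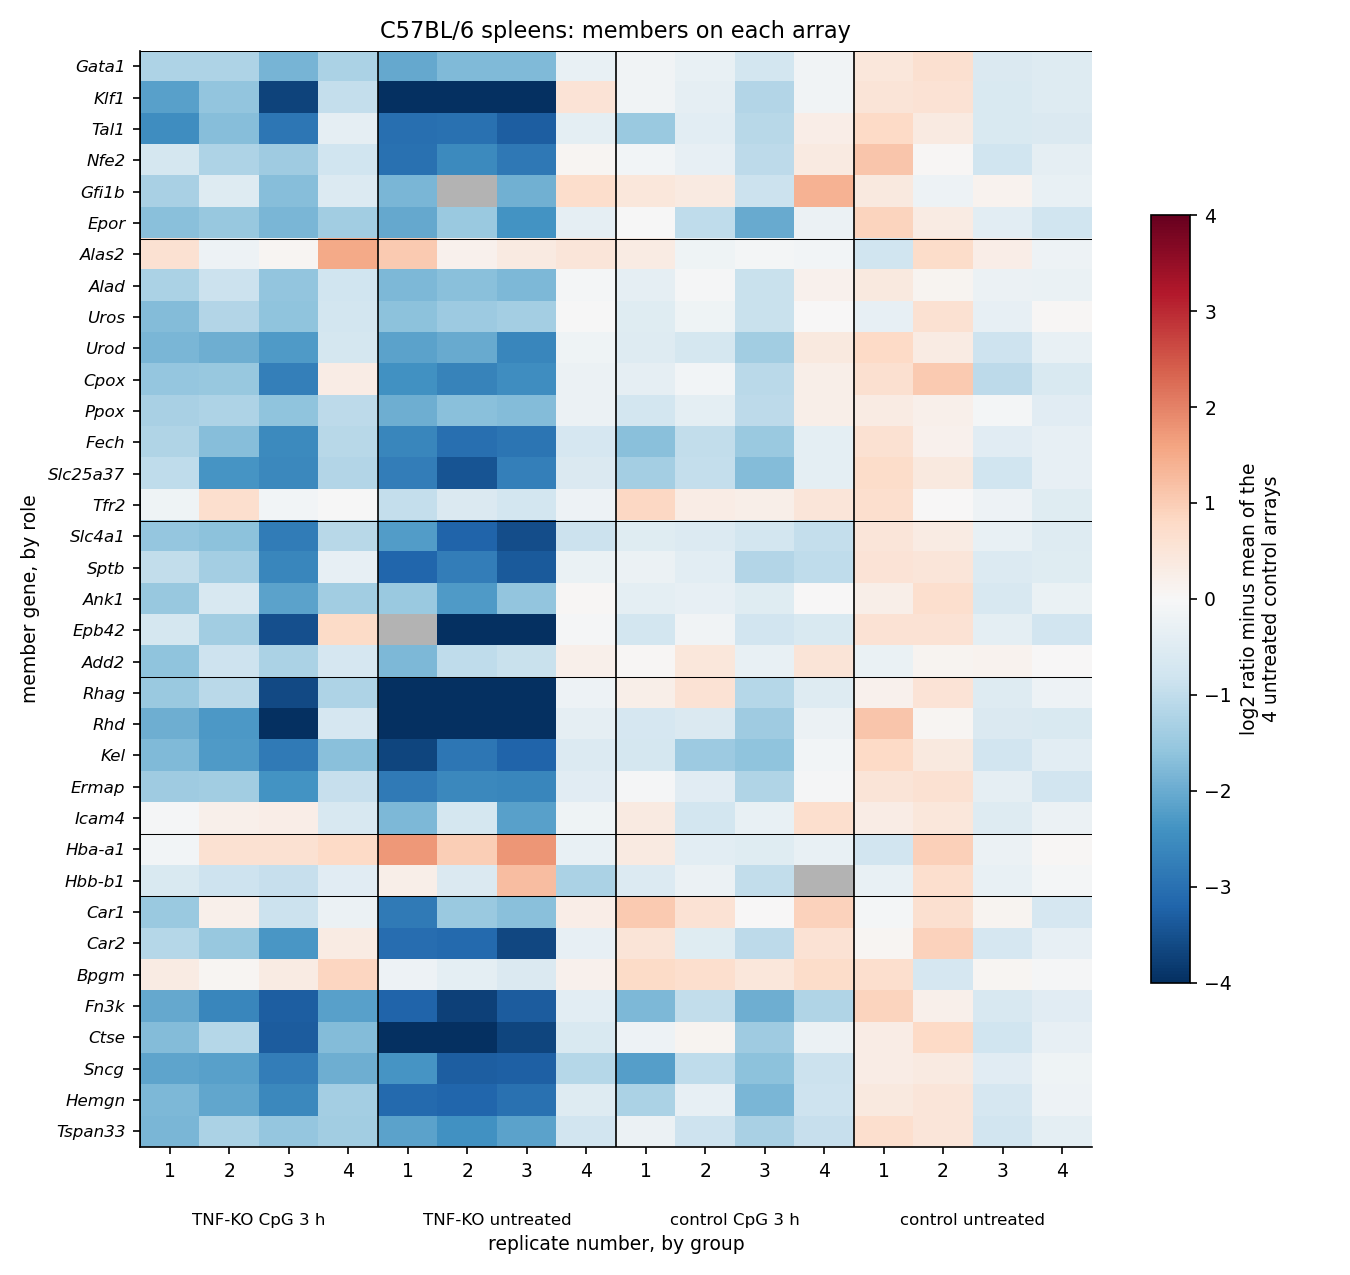
Each member (rows, by role) on the 16 C57BL/6 arrays (columns, by group and replicate), as log2 ratio minus the mean of the 4 untreated control arrays, with missing values in grey. Untreated TNF-KO replicates 1 to 3 are low for 31 of 35 members and replicate 4 is not, and Hba-a1 is high in the same 3 arrays.

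Genes of proliferating cells had low values on the same arrays. Their mean was -1.60, -1.64, -1.43 and -0.28 in untreated TNF-KO spleens, against 0.02, -0.10, -0.79 and -0.64 in controls, and 0 of 19 passed. Replicate 4 again lay with the controls. B cell markers had a mean of 3.72, 3.55, 3.40 and 3.255 in untreated TNF-KO spleens, against 3.04, 3.295, 3.38 and 3.20 in controls, with replicates 1 to 3 above every control, and 0 of 8 passed. Neutrophil markers had 2.44, 2.14, 1.49 and 3.09 in TNF-KO spleens, against 3.13, 2.71, 2.95 and 2.57 in controls, with replicates 1 to 3 below every control, and 0 of 13 passed. Red pulp macrophage markers lay at 3.42 to 3.79 in TNF-KO spleens against 3.595 to 3.97 in controls, megakaryocyte and platelet markers at 1.55 to 1.96 against 1.69 to 2.43 and T cell markers at 1.68 to 2.36 against 2.14 to 2.35, and none of these markers passed. Exocrine pancreas genes, from tissue that borders the spleen, ran from 3.27 to 6.87 in TNF-KO spleens and from 0.39 to 6.38 in controls. With their mean as a covariate, an alternative added after the data were seen, 1 member passed. The part of these cells in the difference was not tested.

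**Figure D5:**
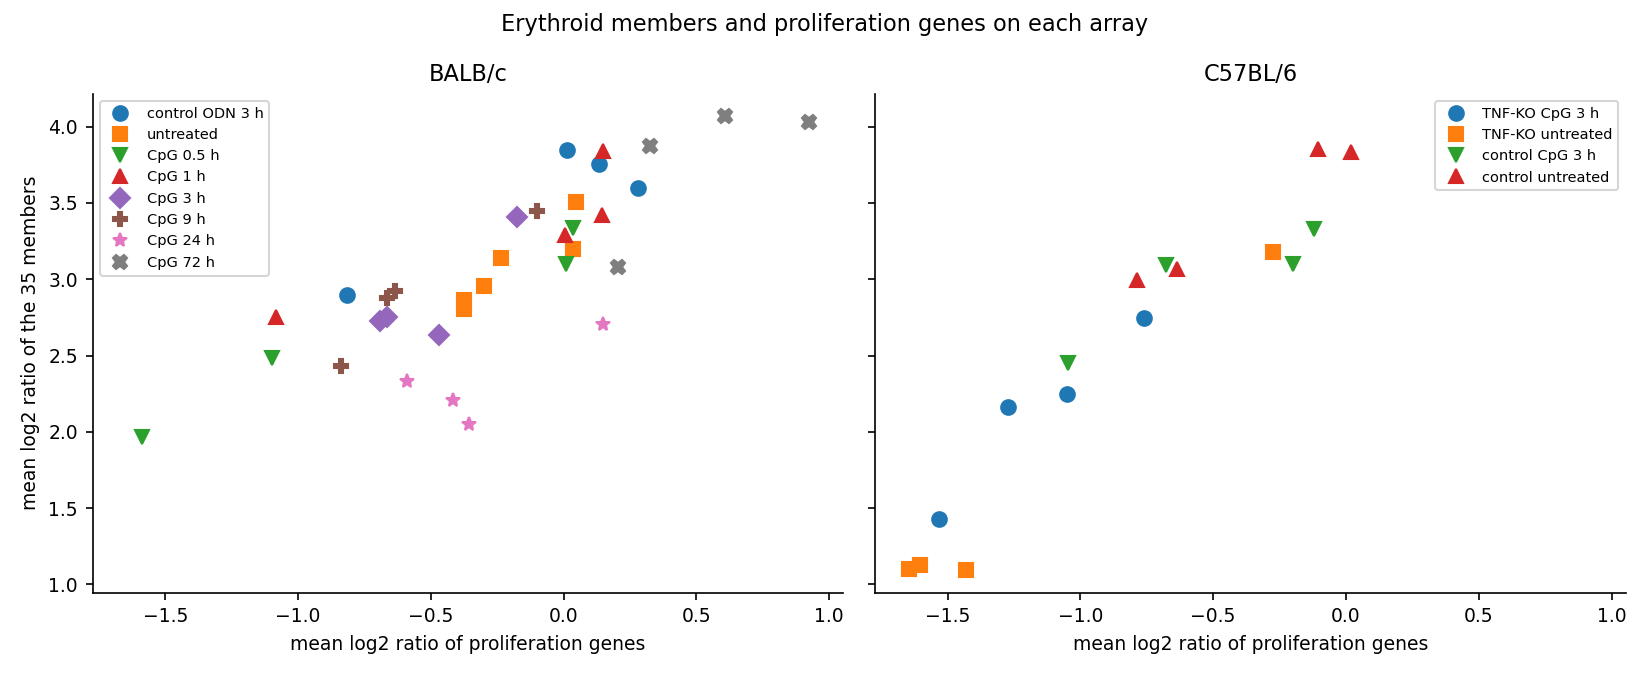
Mean log2 ratio of the 35 members against that of proliferation genes on each array, in BALB/c (left) and C57BL/6 spleens (right). Untreated TNF-KO replicates 1 to 3 are low on both axes, 72 h replicates 1 to 3 are high on both while replicate 4 (3.08) lies within the untreated range of member means, and the 24 h arrays have low member means (2.05 to 2.71) at proliferation means of -0.59 to 0.15.

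After CpG at 3 h, C57BL/6 control spleens had 1 lower member, Sncg, and none higher (2.74% of all genes were called lower and 4.98% higher). Sncg read 2.01, 3.17, 2.57 and 3.35 after CpG, against 4.49, 4.56, 3.74 and 4.01 in untreated controls, a difference of -1.43 ± 0.39 (SE, adjusted p = 0.0312). The median was -0.43, against -0.01 over all genes, and 7 members had an unadjusted p under 0.05. The call was lost without CpG replicate 1 or 3 or without untreated replicate 2 or 4. With the run as a block 5 members passed, a count given without the share of all genes. Red pulp macrophage markers had 2.53 to 3.41 after CpG, against 3.595 to 3.97 in untreated controls (3 of 10 lower), and neutrophil markers 3.57 to 4.62, against 2.57 to 3.13 (6 of 13 higher), and their part was not tested.

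In TNF-KO spleens 0 of 35 members passed 3 h after CpG (3.77% of all genes were called in either direction), with a median of 0.57, against 0.03 over all genes, and 5 members at an unadjusted p under 0.05. The mean of the 35 was 2.16, 2.25, 1.43 and 2.74 after CpG, against 1.13, 1.10, 1.09 and 3.18 in untreated TNF-KO spleens. After CpG, the same mean in control spleens was 3.10, 3.10, 2.45 and 3.33. Without untreated replicate 4, 9 members were higher after CpG in TNF-KO spleens (3.19% of all genes were called higher) and the median was 1.12. Among them were Rhd at 3.31 (adjusted p = 0.00239), Klf1 at 2.31 (0.00813), Rhag at 2.38 (0.00789) and Nfe2 at 1.76 (0.00825). Replicate 4 was left out after its high values were seen, which lowers the untreated level of such members, so these p-values follow that choice. In the run of replicate 4, the CpG array minus the untreated array had a median of -0.578, with 26 of 35 members lower. In the other run with both, 2 CpG arrays against 1 untreated array gave a median of 0.748, with 30 members higher.

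The responses of the genotypes were compared directly. For the difference of the CpG responses, TNF-KO minus control, 0 of 35 members passed (0.0268% of all genes were called in either direction), and 8 had an unadjusted p under 0.05. The median was 1.15, against 0.05 over all genes, and 30 of 35 differences were above 0. Without untreated TNF-KO replicate 4 the count was still 0 (0.0201% of all genes were called) and the median 1.56. This comparison and the one of untreated genotypes share the untreated arrays, so a low untreated level enters both.

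Of the 35 members, 26 were called in at least 1 of the 13 comparisons (36.6% of all 15312 genes were) and 9 in none. The 9 were Add2, Rhag, Alas2, Car2, Bpgm, Gfi1b, Epb42, Hba-a1 and Hbb-b1. Fn3k, Slc25a37, Sptb and Ctse were called in 4 comparisons each. The arrays of the 24 h comparison in BALB/c and those of the untreated TNF-KO comparison are different, and 5 members (Ctse, Fn3k, Hemgn, Slc25a37 and Slc4a1) were lower in both, which is 5 of the 8 at 24 h and 5 of the 11 in TNF-KO spleens. Over the 14903 genes tested in both, 247 were lower at 24 h and 72 in TNF-KO spleens, and 15 were lower in both, which is 6.07% of the 247 and 20.8% of the 72.

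Levels of some members also differed between the strains, in both directions. The arrays of the strains share no run, so strain and run cannot be told apart. Hbb-b1 averaged 4.90 ± 0.47 (SD, n = 4) in untreated C57BL/6 controls and 6.83 ± 0.78 (SD, n = 6) in untreated BALB/c spleens. Alad averaged 0.20 ± 0.31 in untreated C57BL/6 controls and 1.85 ± 0.26 in untreated BALB/c spleens. Kel stood the other way, with 4.32 in untreated C57BL/6 controls against 2.61 in untreated BALB/c spleens. So did Slc4a1, with 6.95 against 5.63. These are levels of the same probe, whose match to the sequence of each strain was not examined, and the differences were not tested.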

How the data were processed

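The authors deposited 1 log2 ratio per probe and array, with the spleen signal over that of the reference. Per the labels and the series' design notes, background was subtracted and flagged spots were dropped, as were those whose signals in both channels lay below 100. Lowess normalization followed within each array, and genes on over 70% of arrays were kept. The tools named were mAdb and BRB ArrayTools. A genome build was not given in the sources used here. Of 36607 probes, 30750 held a value and 26926 carried 1 gene symbol, 203 several and 9478 none.

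Each array was then centred on its median, and limma 3.58.1 (R 4.3.3) was fitted in BALB/c (34 arrays) and C57BL/6 (16 arrays) separately, with genes on at least 70% of arrays and Benjamini-Hochberg adjustment over all genes at 0.05. Groups were taken from array titles. The fits were tested on simulated data. Python 3.11.15 with pandas 2.3.3 made the summaries.

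The members and lists were chosen with earlier results of these data known. Values per array are given mainly for members that passed in a comparison and for Gata1, Alas2, Slc4a1 and Hbb-b1, other members by difference or count, and beside them other erythroid genes that passed and the 10 genes most like the members' mean. The probe with the most values stood for a gene. Alternatives were array scaling, mean of probes, complete genes, array weights, replicate and run blocks and left-out arrays. A pancreas covariate, pairs within runs and the counts without TNF-KO replicate 4 were examined after the data were seen.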

Additional observations from a re-analysis of the deposited data

Results flagged for a closer look

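Arrays far from the others of their group were sought among 323 groups of values, for the members given per array and the role means. There were 24, and chance alone would mark about 1 in 20 groups. Of the 24, 13 were untreated TNF-KO replicate 4, high each time. They were the mean of all members (3.18), of transcription factors and receptor (3.68), of heme synthesis and iron supply (2.12), of the membrane skeleton (3.36), of Rh and blood group genes (3.55) and of the other red cell proteins (3.53), and single genes Gata1 (2.04), Klf1 (5.84), Tal1 (3.02), Fech (2.53), Rhd (5.21), Rhag (3.90) and Fn3k (2.98).

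At 72 h after CpG, replicate 4 was low for the mean of the other red cell proteins (3.29), Klf1 (4.86), Slc25a37 (2.65) and Fn3k (2.07). After control ODN, replicate 1 was low for Urod (1.46), Slc25a37 (2.81) and Rhd (4.31). In TNF-KO spleens after CpG, replicate 3 was low for Gata1 (0.50) and Rhag (0.50). Replicate 1 at 3 h after CpG was high for the mean of all members (3.40), and replicate 2 at 1 h was high for Alas2 (5.22).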

How the results depend on the processing

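All values here are counts of members called or the median difference of the 35. The counts stand without the share of all genes called under the same setting. With arrays scaled to the same spread, the 1 h median was -0.225, control ODN gave 0, CpG against control ODN gave 1 with a median of -0.168, C57BL/6 control CpG gave 0 and untreated TNF-KO gave 2. With the mean of all probes, 1 h, 3 h and 9 h gave 1 each, control ODN 0 and untreated TNF-KO 6, and Sptb turned to 0.13 at 24 h (adjusted p = 0.754) and to 0.61 for CpG against control ODN (adjusted p = 0.0653). With array weights, 72 h against untreated gave 25, control ODN 4, C57BL/6 control CpG 2, TNF-KO CpG 1 and untreated TNF-KO 22. With the run as a block, the medians were -0.707 at 3 h, -0.807 at 9 h and -1.40 at 24 h, and the counts were 0 at 24 h, 5 for C57BL/6 control CpG and 24 for untreated TNF-KO. With the pancreas covariate, added after the data were seen, 24 h gave 13, C57BL/6 control CpG 0 and untreated TNF-KO 1. Restricting to genes with a value on every array moved no count or median.

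Whether the replicate numbers pair the arrays was not settled, because pairs with unlike numbers were not compared. Of 48 same-numbered pairs, 21 had r over 0.1 between their deviations from the group means. The highest r was 0.454, and in 0 of 12 comparisons did every pair exceed 0.1. With the replicate block, 24 h gave 4, 72 h 4, control ODN 0 and untreated TNF-KO 22.

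Leaving out 1 array at a time, the counts ran from 2 to 10 at 24 h, 2 to 15 at 72 h, 14 to 26 for 72 h against 24 h, 0 to 4 for control ODN, 2 to 8 for CpG against control ODN, 0 to 1 for C57BL/6 control CpG, 0 to 9 for TNF-KO CpG and 0 to 31 for untreated TNF-KO, and were 0 at 0.5, 1, 3 and 9 h and for the difference of responses. The medians ran from -0.613 to -0.0883 at 0.5 h, 0.122 to 0.518 at 1 h, -0.432 to -0.136 at 3 h, -0.291 to 0.00159 at 9 h, -0.922 to -0.61 at 24 h, 0.597 to 1.01 at 72 h, 1.29 to 1.62 for 72 h against 24 h, 0.312 to 0.622 for control ODN, -0.978 to -0.522 for CpG against control ODN, -0.65 to -0.215 for C57BL/6 control CpG, 0.285 to 1.12 for TNF-KO CpG, -2.53 to -1.71 for untreated TNF-KO and 0.812 to 1.56 for the difference of responses. The causes of these shifts were not tested.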
